A study of Sus scrofa with 15 samples.

Results

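Penile corpus cavernosum of pigs (Sus scrofa) that had received an implant labelled ECs+ implantation was compared with normal corpus cavernosum by sequencing of polyadenylated RNA. The comparison takes the 3 ECs+ implantation and the 3 normal libraries, 6 of the 15 libraries of the series, chosen by their titles and by the matching columns of the deposited gene table. The series holds 5 groups of 3 libraries, the others being labelled defect, implantation A and implantation B, and its title names the reconstruction of vascular networks in a bionic corpus cavernosum. The study's design pairs ECs+ implantation with implantation B, and normal with defect and implantation A, so ECs+ implantation against normal is not one of its own pairs. Implantation A and B are given here only to place the distance from normal.

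The labels give tissue and group and no more: ECs is not spelled out, what the implants consisted of is not described, and neither breed, age nor time after surgery is stated. How implantation A and B differ is not stated either. A line in the description of each of the 3 ECs+ samples names the third normal sample, so their identity rests on the titles and the column names. The labels do not say whether the 3 libraries of a group are 3 animals, so p-values measure only how these libraries vary, which may be technical. No batch is labelled. If ECs+ implantation and normal were processed apart, group and batch cannot be told apart. In bulk tissue, fewer cells of a type and less RNA per cell cannot be told apart either.

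The corpus cavernosum is a sponge of blood spaces lined by endothelium and held in trabeculae of smooth muscle and collagen. During erection, nerves and endothelium release nitric oxide, which raises cyclic GMP in smooth muscle through soluble guanylate cyclase and relaxes it through protein kinase G, until phosphodiesterase 5 breaks the cyclic GMP down. Contraction at rest runs through calcium, the receptors of noradrenaline and endothelin, and RhoA with its kinases.

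Total counts per library ran from 17375064 to 18810860 in the 6 libraries. Levels are given as CPM, counts scaled to the library total after TMM correction, and are not corrected for gene length. Fold changes are ECs+ implantation over normal on the log2 scale from edgeR's quasi-likelihood fit, with Benjamini-Hochberg adjusted p-values over all 17605 genes tested. A gene was called at an adjusted p under 0.05, and called past 2-fold where a test against a log2 change of 1 (glmTreat) passed the same threshold. It was written as within 1.5-fold where the whole 95% interval of its fold change lay inside that bound.

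Across all genes, the ECs+ libraries stood clearly apart from normal, at a distance between those of implantation A and implantation B. Of 17605 genes, 12362 (70.2%) were called, 6290 higher (35.7%) and 6072 lower (34.5%). Past 2-fold were 1898 genes (10.8%), 772 higher and 1126 lower, and 5757 genes (32.7%) lay within 1.5-fold of normal. The median absolute log2 change was 0.51, and in 12790 genes (72.6%) the libraries of the groups did not overlap. Implantation B, tested against the same normal libraries, had 13234 genes called (75.7%), 2837 of them past 2-fold (16.2%), and a median absolute log2 change of 0.58. Implantation A had 11597 called (65.4%), 1150 past 2-fold (6.49%), and a median absolute log2 change of 0.40. Counts of the gene lists below are to be read beside these shares of all genes. For implantation B against normal they were 38.4% higher and 37.3% lower, and for ECs+ against implantation B 39.7% higher and 36.5% lower.

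The distance between single libraries gave the same order. The root-mean-square difference of log2 CPM, over genes at a mean of at least 1 CPM in the pair, was 0.194 to 0.201 between ECs+ libraries and 0.172 to 0.225 between normal libraries. Between an ECs+ and a normal library it was 0.766 to 0.841 over 9 pairs, against 0.599 to 0.653 for implantation A and 0.869 to 0.919 for implantation B. From implantation B the ECs+ libraries lay 1.01 to 1.02 away, farther than from normal. The ranges between groups did not overlap those within groups.

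**Figure D1:**
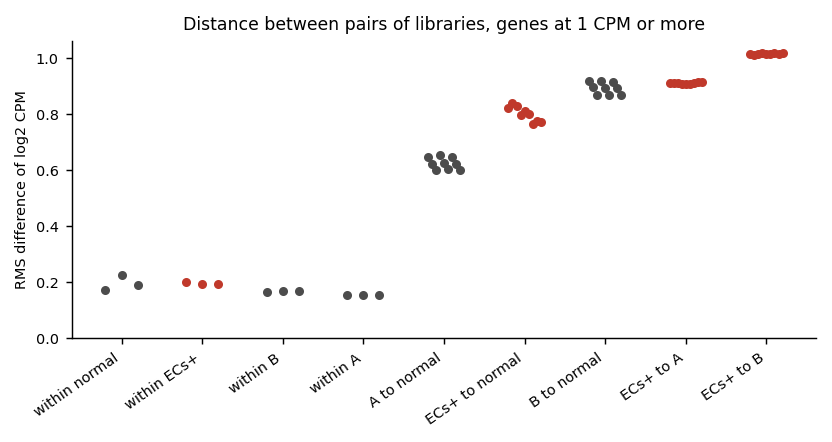
Root-mean-square difference of log2 CPM for each pair of libraries, by kind of pair, with pairs that hold an ECs+ library in red. Pairs within a group sit between 0.153 and 0.225, ECs+ to normal pairs between 0.766 and 0.841, and ECs+ to B pairs at 1.01 to 1.02.

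The balance of higher and lower genes depends on the scaling. The median log2 change of all genes was -0.005 with TMM, where 50.9% of calls were higher. With the library size as the only scaling it was -0.11, and 5392 genes were called higher and 7062 lower. On log2(TPM + 1) from the authors' deposited TPM values it was -0.26, with 3273 higher and 9390 lower. A small change on the log2 scale is therefore a position relative to the other genes, and where a list's median changes sign on the TPM scale, both medians are given. Genes described below as level with normal are so on counts, and apart from GUCY1A3 they stood on the TPM scale between -0.27 (RAMP2) and -0.50 (COL5A2). 18S ribosomal RNA (RN18S) took 1.39% ± 0.017 of counts in ECs+ and 0.519% ± 0.041 in normal (SD, n = 3). When genes were cut into 5 equal classes of implied length, the shortest class had a median log2 change of 0.19 and the longest -0.07. The part of both in the results below was not tested.

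The 4 genes taken as markers split between near and far from normal. PECAM1, the adhesion molecule CD31 of endothelial junctions (chr12:14667643-14723296 in Sscrofa11.1), stood at 666, 690 and 681 CPM in the normal libraries and at 1193, 1167 and 1200 CPM in the ECs+ libraries. All ECs+ libraries were above all normal ones. The log2 change was 0.81 ± 0.036 (SE; adjusted p = 4.13e-18), a 1.75-fold rise. NOS3, the nitric oxide synthase of endothelium (chr18:6209218-6228912), had 320, 309 and 295 CPM in normal and 246, 235 and 227 CPM in ECs+. The groups did not overlap, and the change of -0.38 ± 0.045 (adjusted p = 9.57e-09) lay within 1.5-fold. NOS3 averaged 87.3 ± 3.46 CPM in implantation B and 125 CPM in implantation A.

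COL1A1, a chain of type I collagen (chr12:26379087-26397180), had 8534, 8218 and 7850 CPM in normal and 4038, 4023 and 4085 CPM in ECs+. Every ECs+ library was under every normal one, with a log2 change of -1.02 ± 0.033 (adjusted p = 1.44e-21), while implantation B stood at 83173 ± 1235 CPM and implantation A at 42350 CPM. SLA-1, a classical MHC class I heavy chain (chr7:22824137-22920154), had 550, 535 and 483 CPM in normal and 1437, 1376 and 1439 CPM in ECs+. It rose past 2-fold, by 1.44 ± 0.042 (adjusted p = 5.53e-22), and averaged 71.2 ± 3.24 CPM in implantation B. SLA genes are near-identical copies that differ between animals, so the level of any single SLA gene is uncertain.

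**Figure D2:**
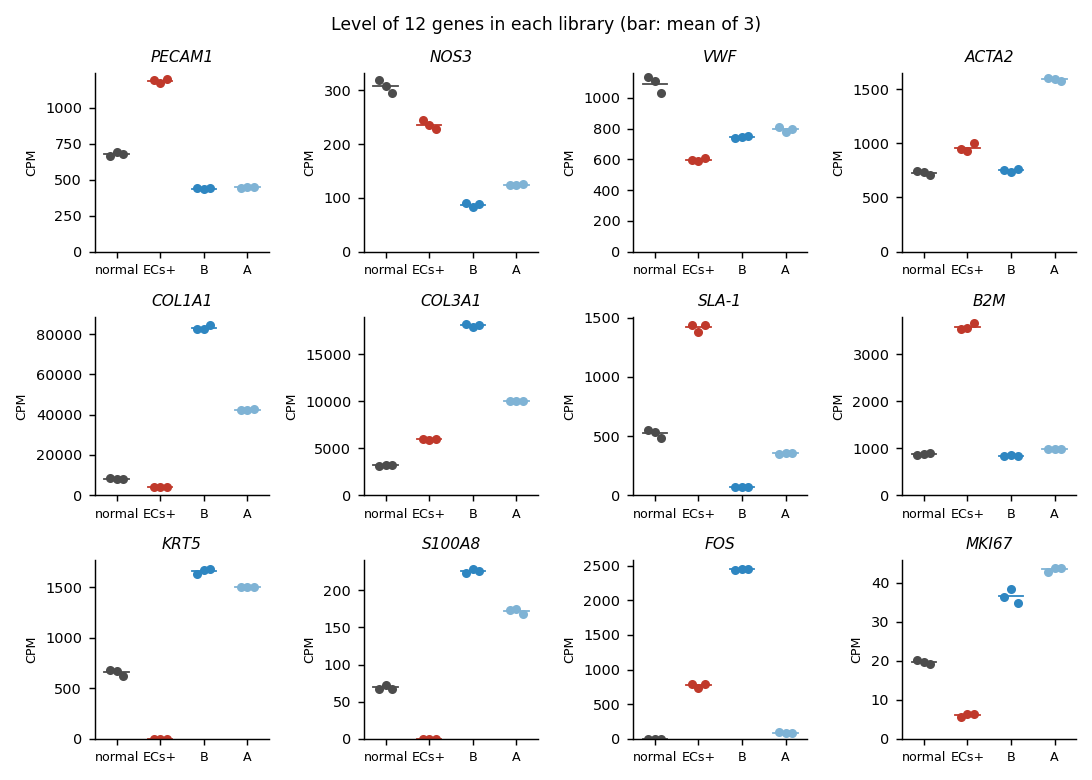
Level in CPM of 12 genes in each library of normal, ECs+ implantation (ECs+), implantation B and implantation A, with a bar at the mean of 3. ECs+ lies above normal for PECAM1, ACTA2, COL3A1, SLA-1, B2M and FOS and below it for NOS3, VWF, COL1A1, KRT5, S100A8 and MKI67.

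Endothelial identity genes moved both ways from normal, mostly by less than 2-fold. Of 25 genes, 22 were called (88.0% beside 70.2% of all genes), 12 higher (48.0% beside 35.7%) and 10 lower (40.0% beside 34.5%). Past 2-fold was 1 each way, 8% of the list beside 10.8% of all genes. In 23 of the 25 the libraries of the groups did not overlap, beside 72.6% of all genes. Within 1.5-fold of normal lay 12 of them (48.0% beside 32.7%). The median absolute log2 change was 0.46, against 0.51 for all genes, and 1.08 for the same 25 genes in implantation B. Their signed median was 0.12, and -0.35 on the TPM scale, against -0.005 and -0.26 for all genes. Their summed level was 6697 ± 154 CPM in normal, 7068 ± 47 in ECs+, 3286 ± 9.36 in implantation B and 4029 ± 27.7 in implantation A. In implantation B against normal, 24 of the 25 were called lower and 0 higher, beside 37.3% lower among all genes, with a median of -1.08. In the direct test of ECs+ against implantation B, 22 were higher (39.7% of all genes) and 2 lower (36.5%), with a median of 1.36.

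A few endothelial genes were near level with normal. CLDN5, the tight junction claudin of endothelium, had 386, 373 and 361 CPM in normal and 361, 346 and 363 CPM in ECs+, with overlapping libraries, a log2 change of -0.06 ± 0.042 and an adjusted p of 0.175. It averaged 73.6 ± 1.34 CPM in implantation B. RAMP2, the co-receptor for adrenomedullin, averaged 441 ± 14.1 CPM in normal, 446 ± 2.22 in ECs+ and 144 ± 3.58 in implantation B. SOX17, a transcription factor of arterial endothelium, averaged 30.4 ± 1.04 CPM in normal and 31.1 ± 1.39 in ECs+. All 3 intervals lay within 1.5-fold. On the TPM scale these genes stood lower in ECs+, by -0.39 for CLDN5 (adjusted p = 3.6e-06), -0.27 for RAMP2 and -0.35 for SOX17. The fit without normal 3 put CLDN5 at -0.09 and past the threshold (adjusted p = 0.031).

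Others moved in opposite directions. VWF, the clotting factor carrier stored in endothelial granules, had 1134, 1111 and 1034 CPM in normal and 594, 593 and 607 CPM in ECs+. It fell by 0.87 on the log2 scale (adjusted p = 4.3e-18), to below implantation B at 747 ± 8.58 CPM. PLVAP, the diaphragm protein of fenestrated endothelium, fell from 236 ± 10.2 to 83.4 ± 4.2 CPM, past 2-fold. EMCN, a sialomucin of capillary and venous endothelium, rose from 139 ± 12.5 to 312 ± 7.34 CPM, also past 2-fold. KDR, the main VEGF receptor, rose by 0.64 ± 0.049, and CDH5, the cadherin of endothelial junctions, was lower by -0.42 ± 0.044, within 1.5-fold.

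**Figure D3:**
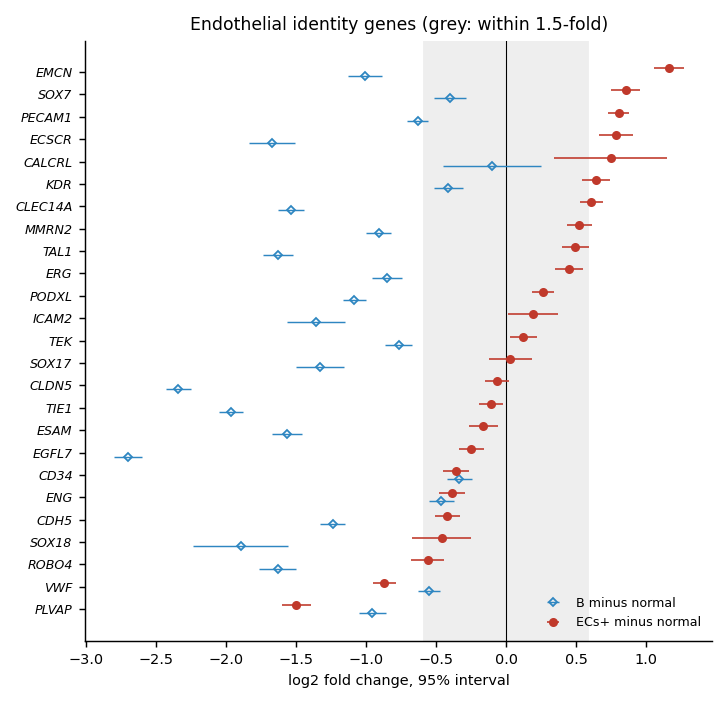
Log2 fold change with its 95% interval for the 25 endothelial identity genes, ECs+ minus normal in red and implantation B minus normal in blue, with the 1.5-fold band in grey. Of the red intervals 12 lie inside the band, while in implantation B 24 of the 25 genes were called lower.

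The finer vessel lists were mixed. Of 13 genes of capillary and lipid-handling endothelium, 5 were higher (38.46% beside 35.7% of all genes) and 7 lower (53.85% beside 34.5%). Only 1 lay within 1.5-fold (7.69% beside 32.7%), and the median was -0.54. AQP1, the water channel of capillaries, rose from 411 ± 20.4 to 1115 ± 24.1 CPM. APLNR, the apelin receptor, fell from 52.1 ± 1.63 to 14.9 ± 0.422 CPM, and LPL, lipoprotein lipase, which adipocytes also make, fell from 48.7 ± 2.98 to 14.9 ± 1.51 CPM. Among 21 arterial, venous and Notch genes 8 were higher (38.1% beside 35.7% of all genes) and 10 lower (47.6% beside 34.5%). The median was -0.08, and 9 were within 1.5-fold. The Notch ligand JAG2 fell by 1.20 and the semaphorin and VEGF co-receptor NRP1 fell by 1.26, while NR2F2, a transcription factor of venous identity, rose by 1.07 (log2 scale).

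Of 27 angiogenic ligands and receptors tested, 10 were higher (37.0% beside 35.7% of all genes) and 12 lower (44.4% beside 34.5%), with a median of -0.04. VEGFA, the main growth factor of endothelium, had 216, 211 and 196 CPM in normal and 89.4, 89.5 and 86.3 CPM in ECs+. It fell by 1.23 on the log2 scale (adjusted p = 3.75e-19), past 2-fold, and averaged 108 ± 2.29 CPM in implantation B. The chemokine CXCL12 rose by 0.54. Of 10 lymphatic genes 6 were higher and 3 lower, with a median of 0.48 that lay at 0 on the TPM scale, and CCL21, the chemokine of lymphatic endothelium, rose from 1.09 ± 0.128 to 7.8 ± 0.897 CPM.

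Pericyte genes were lower in summed level, through a few abundant members. The 12 tested summed to 2953 ± 156 CPM in normal, 1746 ± 17.1 in ECs+ and 2440 ± 14.3 in implantation B. Yet 3 were called higher (25% beside 35.7% of all genes) and 4 lower (33.3% beside 34.5%). The median was 0.02 (-0.31 on the TPM scale). NOTCH3, the Notch receptor of mural cells, had 1048, 968 and 916 CPM in normal and 282, 297 and 279 CPM in ECs+. It fell by 1.77 on the log2 scale (adjusted p = 1.97e-23), past 2-fold, and every ECs+ library was under every normal one. PDGFRB, the receptor that draws mural cells to vessels, fell from 1001 ± 60.3 to 558 ± 13.2 CPM. CSPG4, the NG2 proteoglycan, fell from 333 ± 15.6 to 208 ± 7.94 CPM. RGS5, a regulator of G protein signalling in pericytes, rose from 74.8 ± 8.87 to 120 ± 3.63 CPM.

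The contractile apparatus of smooth muscle was near normal or above it by counts, and split evenly on the TPM scale (10 called higher and 10 lower). Among all genes, 3273 were called higher and 9390 lower on that scale. Relative to the median of all genes, the list stood at 0.33 on counts and 0.20 on the TPM scale. Of 24 genes 14 were higher and 7 lower, 4 rose past 2-fold and 0 fell past it, and 10 lay within 1.5-fold, with a median of 0.33 on counts and -0.06 on the TPM scale. Their summed level was 8232 ± 261 CPM in normal, 9223 ± 129 in ECs+, 7777 ± 30.8 in implantation B and 12590 ± 93.4 in implantation A. ACTA2, smooth muscle alpha-actin, had 743, 737 and 707 CPM in normal and 944, 927 and 1007 CPM in ECs+. The groups did not overlap, and the rise of 0.40 ± 0.039 (adjusted p = 2.96e-10) was 0.02 on the TPM scale (adjusted p = 0.599). MYH11, the smooth muscle myosin heavy chain, averaged 1205 ± 23 CPM in normal and 1101 ± 18.7 in ECs+, a change of -0.13 ± 0.036 (adjusted p = 0.00183) within 1.5-fold.

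CNN1, calponin, had overlapping libraries, 244 ± 14.7 CPM in normal and 248 ± 2.54 in ECs+ (log2 change 0.02 ± 0.046, adjusted p = 0.704, within 1.5-fold). On the TPM scale it stood at -0.36. Some other members rose. DES, desmin, had 167, 166 and 153 CPM in normal and 390, 394 and 390 CPM in ECs+, a rise of 1.27 ± 0.044 past 2-fold, and stood at 153 ± 3.57 CPM in implantation B. SYNM, synemin, rose by 1.12 and ACTG2, gamma smooth muscle actin, from 56 ± 3.81 to 158 ± 5.62 CPM, both past 2-fold. MYL6, a myosin light chain, rose by 0.79.

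Genes of nitric oxide and cyclic nucleotide signalling were more often higher than lower by counts. On the TPM scale 9 were higher and 11 lower, beside 3273 higher and 9390 lower among all genes. Relative to the median of all genes, the list stood at 0.45 on counts and 0.25 on the TPM scale. Of 28 tested of 32 listed, 16 were higher and 8 lower, 1 each way past 2-fold, with a median of 0.45 that was -0.02 on the TPM scale. Beside NOS3, GUCY1A3, the alpha subunit of the soluble guanylate cyclase that senses nitric oxide, had 47.6, 45.7 and 51.4 CPM in normal and 40.9, 51.8 and 46 CPM in ECs+. The libraries overlapped (log2 change -0.06 ± 0.076, adjusted p = 0.481), whereas the deposited TPM values put it at -1.14 (adjusted p = 1.16e-06), a larger gap than the shift of all genes. PRKG1, protein kinase G, rose from 18.3 ± 3.3 to 32.8 ± 4.01 CPM (0.84 ± 0.11, adjusted p = 6.89e-07), while its change of 0.22 on the TPM scale missed the threshold (adjusted p = 0.128). PDE5A, the phosphodiesterase of cyclic GMP and target of sildenafil, had 36.9, 37.9 and 45.5 CPM in normal and 63.1, 69.4 and 62.5 CPM in ECs+, a rise of 0.70 ± 0.073 (adjusted p = 1.43e-09).

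The phosphodiesterases did not move alike. PDE3A, which cyclic GMP inhibits, had 13.4, 15.2 and 15 CPM in normal and 1.94, 2.11 and 2.22 CPM in ECs+, and fell by 2.79 on the log2 scale, past 2-fold. PDE4B, which breaks down cyclic AMP, rose past 2-fold, by 1.55. NPR1, the receptor of atrial natriuretic peptide, fell by 0.97, and ADCY5, an adenylate cyclase, overlapped with normal (73.7 ± 3.58 and 72.6 ± 1.28 CPM). CAV1, the coat protein of caveolae that binds NOS3, rose from 669 ± 57.3 to 1370 ± 16.4 CPM, with implantation B at 684 ± 8.19.

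Of 27 genes of contraction, RhoA and receptor signalling, 15 were higher and 7 lower, with a median of 0.24 (-0.18 on the TPM scale). RHOA itself rose from 183 ± 7.77 to 372 ± 2.03 CPM, and PPP1CB, the catalytic subunit of myosin phosphatase, from 137 ± 14.1 to 294 ± 4.52 CPM. PTGER2, a prostaglandin E receptor that raises cyclic AMP, rose past 2-fold, from 10.7 ± 2.3 to 52.8 ± 1.71 CPM. CACNA1C, the pore of the L-type calcium channel, fell past 2-fold, from 28.8 ± 0.553 to 9.75 ± 0.34 CPM. Among 14 potassium channels 6 were higher and 5 lower, with a median of -0.02.

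Fibrillar collagens and their crosslinking enzymes summed to nearly the normal level. The 25 genes gave 18200 ± 383 CPM in normal and 17820 ± 86.3 in ECs+, against 146700 ± 1541 in implantation B and 73570 ± 201 in implantation A. In ECs+, 9 were higher and 12 lower, 2 and 4 of them past 2-fold, 9 were within 1.5-fold, and the median was -0.07. In implantation B against normal 20 were higher (38.4% of all genes) and 1 lower, with a median of 1.05. Directly against implantation B, ECs+ had 2 higher and 23 lower.

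The sum hid a change in the mix. While COL1A1 fell, COL3A1, the chain of type III collagen, had 3149, 3202 and 3184 CPM in normal and 5994, 5938 and 6006 CPM in ECs+. All ECs+ libraries were higher, by 0.91 ± 0.031 on the log2 scale (adjusted p = 4.98e-21), and implantation B stood at 18117 ± 160 CPM. COL1A2, the other chain of type I collagen, rose from 3281 ± 45.4 to 4976 ± 20 CPM, opposite to COL1A1. COL5A1 fell by 1.12, past 2-fold, while COL5A2, of the same type V collagen, stood at 479 ± 12.1 and 491 ± 12.8 CPM. COL11A1 overlapped with normal, at 57.3 ± 1.55 and 57.8 ± 2.82 CPM, and was at 861 ± 14.1 CPM in implantation B.

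The enzymes of this list moved both ways. LOX, lysyl oxidase, fell from 34.2 ± 1.39 to 17.7 ± 1.45 CPM, with implantation B at 272 ± 3.6 CPM. LOXL1, its relative in elastic fibres, fell past 2-fold from 130 ± 8.17 to 29.3 ± 0.923 CPM. BMP1, the proteinase that trims procollagen, fell past 2-fold from 237 ± 8.9 to 99.4 ± 2.61 CPM. P4HA1, a subunit of prolyl 4-hydroxylase, rose past 2-fold from 39.7 ± 3.99 to 111 ± 2.62 CPM, and LOXL4, another lysyl oxidase, from 2.66 ± 0.561 to 8.82 ± 0.549 CPM.

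Basement membrane genes were lower as a group. Of 19, 2 were higher and 16 lower, 3 of them past 2-fold, with a median of -0.52 (-0.69 on the TPM scale) and a summed level of 14930 ± 604 CPM in normal and 10710 ± 98.5 in ECs+. In implantation B the same sum was 29530 ± 338 CPM. HSPG2, perlecan, had 2314, 2196 and 2037 CPM in normal and 871, 855 and 866 CPM in ECs+, and fell by 1.34 on the log2 scale, past 2-fold. LAMA5 and AGRN, a laminin chain and agrin, fell by 1.18 and 1.24, past 2-fold. COL4A1 and COL4A2, the main type IV collagen chains, fell by 0.58 and 0.92, while LAMC1, the common laminin gamma chain, stood at 464 ± 9.62 and 470 ± 15.8 CPM. The median implied length of these genes was 2.14 times that of all genes, and the part of length was not tested.

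Elastic fibre genes were also lower, 12 of 17, with 5 higher and a median of -0.52 (-0.90 on the TPM scale). ELN, elastin, fell from 2170 ± 127 to 1661 ± 28.7 CPM, within 1.5-fold. LTBP4, which tethers latent TGF-beta to elastic fibres, fell past 2-fold from 2375 ± 130 to 943 ± 26.9 CPM. MFAP4, a microfibril protein, fell past 2-fold from 436 ± 20.3 to 98.6 ± 2.14 CPM. EFEMP1, fibulin-3, rose from 14.9 ± 0.853 to 129 ± 7.19 CPM.

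The rest of the interstitial matrix leaned higher by counts and was balanced on the TPM scale (13 higher and 11 lower, beside 3273 and 9390 of all genes). Relative to the median of all genes, the list stood at 0.35 on counts and 0.20 on the TPM scale. Of 28 genes of collagen VI and other interstitial matrix, 18 were higher and 7 lower, 7 and 1 past 2-fold, with a median of 0.34 on counts and -0.06 on the TPM scale. DCN, decorin, had 292, 310 and 315 CPM in normal and 1550, 1578 and 1555 CPM in ECs+, with no overlap and a rise past 2-fold by 2.35 ± 0.038. Implantation B stood higher still, at 3453 ± 43.7 CPM. LUM, lumican, rose by 2.09 and FN1, fibronectin, by 0.73 (log2 scale).

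Of 14 genes of tenocyte-like matrix and its regulators, 10 were higher (71.4% beside 35.7% of all genes) and 0 lower. Past 2-fold were 5 of them (35.7% beside 10.8%), and the median was 0.84 (0.43 on the TPM scale). The list includes EGR1 and EGR2, which the immediate early list below also holds. KERA, keratocan, rose from 20.4 ± 2.11 to 89.6 ± 5.41 CPM and COMP, cartilage oligomeric matrix protein, from 62.7 ± 6.34 to 243 ± 4.57 CPM. POSTN, periostin, which activated fibroblasts secrete, had 399, 447 and 491 CPM in normal and 172, 171 and 178 CPM in ECs+. It fell by 1.36 on the log2 scale, past 2-fold, where implantation B stood at 4612 ± 10.6 CPM.

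Activated and resting fibroblast lists both leaned higher. The 23 activated genes summed to 15110 ± 321 CPM in normal, 15290 ± 103 in ECs+ and 115600 ± 1384 in implantation B, with 14 higher, 5 lower and a median of 0.42 (0.02 on the TPM scale). The activated list shares COL1A1 and COL3A1, which moved in opposite directions, with the fibrillar collagen list. Of 22 resting fibroblast genes 15 were higher and 5 lower, 6 and 1 past 2-fold, with a median of 0.58 (0.38 on the TPM scale). Their summed level, most of it from GSN, was 39970 ± 1616 CPM in normal and 42780 ± 479 in ECs+. GSN, gelsolin, the most abundant of them in reads, had 35797, 34521 and 32675 CPM in normal and 33629, 32726 and 33353 CPM in ECs+. These libraries overlapped, at a log2 change of -0.05 ± 0.03 (adjusted p = 0.171) within 1.5-fold, and implantation B stood at 15426 ± 252 CPM. Without normal 3, GSN was at -0.08 and past the threshold (adjusted p = 0.00192), and on the TPM scale at -0.42. SFRP2, a secreted Wnt modulator, rose by 1.15 and C3, complement C3, by 1.36, both past 2-fold.

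Of 16 matrix metalloproteinases and inhibitors tested of 21 listed, 9 were higher and 6 lower. MMP3, stromelysin, had 6.68, 5 and 5.63 CPM in normal and 191, 180 and 185 CPM in ECs+, a rise of 5.01 ± 0.091 on the log2 scale, and 277 ± 4.1 CPM in implantation B. MMP2, a gelatinase, fell from 1044 ± 56.8 to 632 ± 17.1 CPM. The inhibitors TIMP1 and TIMP3 rose by 1.31 and 0.85.

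In the TGF-beta and BMP list, 18 of 30 were higher and 9 lower, with a median of 0.41 that was -0.08 on the TPM scale. The ligand TGFB1 was lower, at 106 ± 1.81 against 128 ± 7.28 CPM, within 1.5-fold, and its receptor TGFBR2 rose from 576 ± 2.87 to 1100 ± 9.16 CPM. CTGF, a matricellular target of TGF-beta and YAP, had 36.8, 34.9 and 37 CPM in normal and 470, 566 and 515 CPM in ECs+, a rise of 3.83 ± 0.06, with implantation B at 470 ± 32.6 CPM. LTBP1, a latent TGF-beta binding protein, rose by 0.90.

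**Figure D4:**
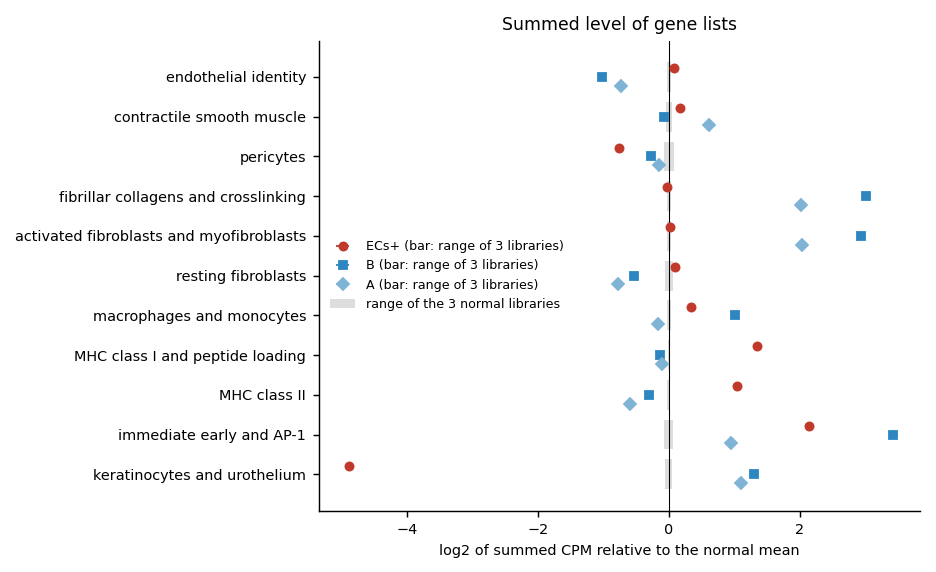
Log2 of the summed CPM of 11 gene lists relative to the normal mean, for ECs+, implantation B and implantation A, with grey bars for the range of the 3 normal libraries. ECs+ lies near 0 for endothelial identity, fibrillar collagens and both fibroblast lists, above normal for MHC class I and II and immediate early genes, and far below normal for keratinocytes and urothelium. Sums follow the most abundant genes, and the median log2 changes of the activated and resting fibroblast lists were 0.42 and 0.58.

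Epithelial genes set the normal and ECs+ libraries farthest apart. Of 28 keratinocyte and urothelial genes 19 were tested, of which 0 were higher and 15 lower, 11 past 2-fold. A member low in ECs+ enters the test through its level in normal, so these counts rest on that filter. Their summed level ran from 1768 to 1901 CPM in normal and from 60.5 to 64.2 CPM in ECs+, with 4510 ± 38.4 in implantation B and 3950 ± 5 in implantation A. KRT5, a basal keratin, had 683, 670 and 622 CPM in normal and 0, 0.222 and 0 CPM in ECs+, 4 counts in all. No ECs+ library came near a normal one. KRT15, another basal keratin, had 5975 counts in normal and 0 in ECs+, a level at least 1921-fold lower when 3 counts for the whole group are taken as the floor. IVL and FOXA1 were at 0 in ECs+ too.

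Keratins of other layers and junction proteins followed. KRT4, of the upper layers of wet epithelia, had 798, 772 and 751 CPM in normal and 0.387, 0.445 and 0.37 CPM in ECs+. KRT6A and GJB2 had 2 counts and 1 count in all ECs+ libraries together, against 10353 and 1258 in normal. CRNN, cornulin, had 4 counts against 2491. DSP, desmoplakin, fell from 144 ± 3.02 to 0.363 ± 0.0765 CPM. Of 24 genes of desmosomes and epithelial junctions 22 were lower and 2 higher, with DSG3 at 32.4 ± 3.63 and 0.219 ± 0.0591 CPM and CDH1, E-cadherin, at 30.2 ± 0.809 and 1.55 ± 0.171 CPM. Here too, members low in ECs+ entered the test through their level in normal, so the counts rest on that filter. KRT8, a simple-epithelium keratin also found in other cells, overlapped (15.3 ± 1.49 and 13.9 ± 1.69 CPM, adjusted p = 0.257).

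Of 17 secretory epithelial genes tested, 10 were lower and 3 higher, 8 and 1 past 2-fold. MUC4, a membrane mucin, had 1408 counts in normal and 8 in ECs+. The summed level of this list was higher in ECs+ through CLU, clusterin, which other cells also make and which rose from 992 ± 24.9 to 4070 ± 66.2 CPM. Of 7 neutrophil and calgranulin genes tested of 13 listed, 3 were higher and 4 lower, 3 each way past 2-fold, with a median of -0.64. The 3 calgranulins, which neutrophils and stratified epithelium share, were far lower in ECs+. S100A8 had 67.6, 72 and 67.6 CPM in normal and 0.0553, 0.111 and 0.0529 CPM in ECs+, S100A9 averaged 184 ± 7.42 and 0.81 ± 0.495 CPM, and S100A12 averaged 234 ± 8.88 and 0.777 ± 0.294 CPM. ITGB2, a leukocyte integrin chain, was lower too, at 22.5 ± 1.57 and 14.5 ± 0.905 CPM. Among the higher genes, CSF3R, the receptor for granulocyte growth factor, had 32 counts in normal and 112 in ECs+, and the neutrophil chemokine CXCL8 had 2 and 158. Members near 0 in either group entered the secretory and neutrophil lists through the other group, as MUC4 did through normal and CXCL8 through ECs+. The counts of these lists rest on that filter. What the lower share of epithelial RNA contributes to other lists was not tested.

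Macrophage genes were mixed. Of 23 tested, 11 were higher (47.8% beside 35.7% of all genes) and 5 lower (21.7% beside 34.5%). Within 1.5-fold lay 8, and the median was 0.09 (-0.25 on the TPM scale). Their summed level was 890 ± 17.1 CPM in normal, 1119 ± 13.2 in ECs+ and 1787 ± 10.2 in implantation B. CD163, a scavenger receptor of resident macrophages, had 31.5, 31.3 and 30.8 CPM in normal and 13.6, 14.1 and 11.6 CPM in ECs+, and fell by 1.25 on the log2 scale, past 2-fold. CSF1R, the receptor for macrophage growth factor, fell past 2-fold from 146 ± 7.11 to 66.9 ± 2.65 CPM, and CD68, a lysosomal marker, fell by 0.54. C1QB, of complement C1q, was level at 82.9 ± 3.14 and 83.2 ± 3.01 CPM.

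Other members of the macrophage list rose. LYZ, lysozyme, had 0.637, 1.05 and 1.51 CPM in normal and 12.4, 14.4 and 15.4 CPM in ECs+. GPNMB rose from 30.8 ± 2.11 to 152 ± 5.24 CPM and CTSS, cathepsin S, from 45.6 ± 4.11 to 145 ± 2.76 CPM, both past 2-fold. Of 16 T and NK cell genes tested of 24 listed, 2 were higher and 7 lower, with CD3E at 2.26 ± 0.213 and 1.18 ± 0.142 CPM (adjusted p = 0.00324). CCL5, a chemokine of T cells and of stimulated stromal cells, rose from 14.1 ± 0.85 to 75.2 ± 3.57 CPM. Of 12 B and plasma cell genes 4 were higher and 3 lower, with a median of 0.145 (-0.121 on the TPM scale, 2 higher and 5 lower).

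Antigen presentation genes were higher in ECs+ than in normal. Of 21 MHC class I and peptide loading genes, 17 were higher and 1 lower, with a median of 0.69 (0.29 on the TPM scale). They summed to 3226 ± 31.8 CPM in normal, 8179 ± 91.4 in ECs+, 2928 ± 21.9 in implantation B and 2985 ± 21.9 in implantation A. B2M, the light chain of every class I molecule and not one of the near-identical SLA copies, had 847, 876 and 889 CPM in normal and 3542, 3571 and 3660 CPM in ECs+. All ECs+ libraries were higher, by 2.04 ± 0.034 on the log2 scale (adjusted p = 1.2e-28), while implantation B stood at 841 ± 5.9 CPM. SLA-2 and SLA-8 rose past 2-fold, by 1.40 and 1.37.

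Of 13 MHC class II genes 12 were higher and 1 lower, with a median of 0.84 (0.49 on the TPM scale) and a summed level of 2748 ± 50.6 CPM in normal and 5667 ± 79.7 in ECs+. SLA-DRA rose from 333 ± 11.7 to 748 ± 10.6 CPM and SLA-DQA1 from 225 ± 9.38 to 687 ± 9.84 CPM, both past 2-fold. CD74, the invariant chain, had 1117, 1068 and 1056 CPM in normal and 2238, 2170 and 2209 CPM in ECs+, a rise of 1.03 ± 0.035, and 518 ± 6.95 CPM in implantation B.

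Interferon response genes rose with them, 29 of 35, with 2 lower and a median of 0.73 (0.33 on the TPM scale). IFI6, HERC6 and CXCL10 rose past 2-fold, by 1.32, 1.34 and 3.24. In implantation B against normal 29 of the 35 were higher as well, with a median of 0.98. Directly against implantation B, ECs+ had 16 higher and 18 lower.

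Of 35 inflammatory cytokines, chemokines and adhesion genes, 22 were higher and 3 lower, 15 and 1 past 2-fold, with a median of 0.87 (0.33 on the TPM scale). Members near 0 in normal, such as CXCL8, entered the test through ECs+, so the counts and median rest in part on that filter. CCL2, the monocyte chemokine, rose from 3.89 ± 0.897 to 46.2 ± 2.69 CPM. SOCS3, the feedback inhibitor of IL-6 type signalling, had 15, 15.2 and 13.1 CPM in normal and 191, 196 and 190 CPM in ECs+, a rise of 3.73 ± 0.066. IL6 itself had 28 counts in normal and 24 in ECs+ and did not enter the test. VCAM1, the leukocyte adhesion molecule of activated endothelium, rose by 1.69, while ICAM1 overlapped with normal (26.4 ± 1.05 and 25.5 ± 0.761 CPM, adjusted p = 0.586).

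Complement and coagulation genes had the largest median of the immune lists described here, 1.21 (0.49 on the TPM scale), with 20 of 29 higher, 4 lower, and 14 and 1 past 2-fold. A2M, a proteinase inhibitor of plasma, had 43.7, 45.9 and 43.7 CPM in normal and 616, 612 and 617 CPM in ECs+, a rise of 3.79 ± 0.046, and 122 ± 2.46 CPM in implantation B. C1S, a proteinase of the first complement component, rose from 166 ± 5.62 to 773 ± 13.7 CPM. CD59, which blocks the membrane attack complex, rose by 1.37. All 3 changes were past 2-fold.

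Immediate early genes, which cells switch on within minutes of a stimulus or of handling, gave the largest rises. Of 33 tested, 28 were higher and 2 lower, 20 and 0 past 2-fold, with a median of 1.30 (0.91 on the TPM scale). Their summed level was 1635 ± 78.4 CPM in normal, 7207 ± 20 in ECs+, 17480 ± 27.7 in implantation B and 3154 ± 20.9 in implantation A. FOS, a subunit of AP-1, had 3.5, 2.53 and 2.71 CPM in normal and 784, 732 and 792 CPM in ECs+, a log2 change of 8.04 ± 0.11 (adjusted p = 9.01e-36). FOSB had 2.49, 2.21 and 2.03 CPM in normal and 1066, 1091 and 1066 CPM in ECs+, and 2702 ± 28.2 CPM in implantation B. EGR1, CYR61 and ATF3 rose by 3.99, 3.80 and 4.30. The time from tissue collection to RNA extraction is not stated in the labels, and its part in the result was not tested.

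By the rule of the 8 largest changes each way, the highest were FOSB, FOS, CXCL13, CHI3L1, RGS1, MMP3, CXCL2 and ATF3. The rule asks for a mean log2 CPM of at least 3 over the 6 libraries. A gene near 0 in either group therefore passed it through the other group. CXCL13, the B cell chemokine, averaged 0.246 ± 0.134 CPM in normal, 22.6 ± 1.1 in ECs+ and 2.21 ± 0.14 in implantation B. CHI3L1, a chitinase-like secreted protein, averaged 1.77 ± 0.576, 108 ± 1.37 and 202 ± 5.98 CPM in the same groups. RGS1, a G protein regulator of leukocytes, rose from 0.686 ± 0.371 to 23.7 ± 0.606 CPM, and CXCL2, a neutrophil chemokine, from 1.61 ± 0.595 to 40.5 ± 6.41 CPM. The lowest were KRT15, KRT5, KRT6A, KRT4, GJB2, S100A8, CRNN and DSP, all described above.

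Of 30 proliferation genes 14 were called (46.7% beside 70.2% of all genes) and 16 were not. Called higher were 2 and lower 12 (40.0% beside 34.5% of all genes), with a median of -0.33 (-0.40 on the TPM scale). In implantation B against normal 21 were higher and 4 lower. MKI67, the antigen Ki-67 of cycling cells, had 20.1, 19.7 and 19.1 CPM in normal and 5.7, 6.34 and 6.4 CPM in ECs+. It fell by 1.68 on the log2 scale (adjusted p = 4.94e-14), past 2-fold. The replication helicase genes MCM2 and MCM5 fell by 1.18 and 0.78. PCNA, the sliding clamp of DNA replication, went the other way, from 8.57 ± 1.09 to 23.6 ± 0.788 CPM.

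Ribosomal protein genes were higher, 30 of 35, with 2 lower, 17 within 1.5-fold, and a median of 0.54 (0.25 on the TPM scale). They summed to 26400 ± 549 CPM in normal and 37130 ± 482 in ECs+, and to 18870 ± 179 in implantation B, where 34 of the 35 were lower than in normal. RPS27A had 484, 497 and 503 CPM in normal and 1277, 1232 and 1282 CPM in ECs+, and RPL7 rose from 901 ± 31.9 to 1805 ± 31.9 CPM. RPS2 and RPL13 overlapped with normal, at 1966 ± 60.4 and 2022 ± 30.1 CPM and at 660 ± 15 and 646 ± 20.2 CPM. Relative to the median of all genes, the list stood at 0.55 on counts and 0.51 on the TPM scale. These genes are short, with a median implied length 0.147 times that of all genes. Over 15669 genes with an implied length, length and log2 change had a Spearman correlation of -0.133.

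Proteasome subunits rose in 26 of 31 genes, with 1 lower and a median of 0.48 (0.10 on the TPM scale). PSMC6, an ATPase of the regulatory particle, rose from 28.3 ± 3.95 to 82.3 ± 6.72 CPM. Of 25 nuclear respiratory chain subunits 18 were higher and 4 lower, with a median of 0.52 (0.25 on the TPM scale). The median implied lengths of these lists were 0.439 and 0.224 times that of all genes. The part of length in all 3 lists was not tested.

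Chaperones leaned higher by counts, and had medians near 0 on the TPM scale, where the median of all genes was -0.26. Relative to that of all genes, the ER folding median was 0.40 on counts and 0.26 on the TPM scale. For cytosolic chaperones these values were 0.33 and 0.21. Of 31 genes of ER folding and the unfolded protein response 20 were higher and 6 lower, with a median of 0.40 that was -0.004 on the TPM scale. HSPA5, the chaperone BiP, rose from 99.1 ± 7.92 to 178 ± 12 CPM, HSP90B1 by 1.10 and PDIA3 by 0.92. Of 22 cytosolic chaperones 12 were higher and 6 lower, with a median of 0.33 (-0.05 on the TPM scale). HSPA8, the constitutive Hsc70, rose by 0.60, whereas HSP70.2, an inducible Hsp70 gene with near-identical copies, fell by 1.11 on the log2 scale.

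Hypoxia and glycolysis genes split evenly, 14 higher and 16 lower of 36, with 17 within 1.5-fold and a median of 0.005 (-0.39 on the TPM scale). HIF1A, the oxygen-regulated transcription factor, had 47.2, 49.3 and 57.2 CPM in normal and 51.5, 56.5 and 50.8 CPM in ECs+. The libraries overlapped (log2 change 0.05 ± 0.071, adjusted p = 0.575, within 1.5-fold), and implantation B stood at 268 ± 4.75 CPM. EPAS1, its relative HIF-2 alpha, which endothelium expresses strongly, fell past 2-fold from 428 ± 19.4 to 111 ± 6.15 CPM. The glucose transporters moved apart, as SLC2A1 fell by 1.46 and SLC2A3 rose by 2.88 on the log2 scale. ALDOC, aldolase C, fell by 1.52, and ENO1, enolase, was level at 642 ± 14.5 and 646 ± 19.5 CPM.

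Fat genes were lower. Of 15 adipocyte genes tested of 20 listed, 11 were lower and 3 higher, with a median of -0.86 (-1.17 on the TPM scale) and a summed level of 994 ± 49.3 CPM in normal, 497 ± 12.2 in ECs+, 763 ± 11.7 in implantation B and 1024 ± 15 in implantation A. PLIN1, the coat protein of lipid droplets, fell from 34.2 ± 4.43 to 9.66 ± 1.15 CPM, and FASN, fatty acid synthase, from 363 ± 24.2 to 114 ± 2.9 CPM. PNPLA2, a triglyceride lipase, fell by 0.86. ADIPOQ had 22 counts in normal and 2 in ECs+ and did not enter the test. Of 21 fatty acid oxidation genes 8 were higher and 5 lower, with a median of 0.12. On the TPM scale 4 were higher and 13 lower, with a median of -0.34. PDK4, which turns cells from glucose to fat as fuel, had 89.4, 93 and 104 CPM in normal and 62.9, 58.3 and 61.3 CPM in ECs+, against 8.66 ± 0.383 in implantation B.

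Of 19 Schwann cell and nerve genes 5 were higher and 10 lower, 1 and 5 past 2-fold. MBP, a protein of compact myelin, fell past 2-fold from 44.8 ± 1.62 to 16.3 ± 2.14 CPM. PMP22, of peripheral myelin and of fibroblasts, rose by 0.73, and S100B, a marker of Schwann cells and other cell types, was higher by 0.29 ± 0.039 within 1.5-fold, but stood at -0.11 on the TPM scale.

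Of 14 steroid receptor and androgen response genes 7 were higher and 4 lower. In the HOX and regional identity list 6 of 26 were higher and 15 lower, with a median of -0.28, while HOXD13, a gene of the genital and limb tip, rose by 1.08. Wnt genes were 15 higher and 15 lower of 34, with a median of 0.23 (-0.13 on the TPM scale). WIF1, a secreted Wnt inhibitor, rose past 2-fold from 36.9 ± 0.995 to 226 ± 3.18 CPM. Of 13 senescence and cell cycle inhibitor genes 10 were higher and 2 lower. Mast cell (2 higher and 1 lower of 5), skeletal muscle (0 and 4 of 6), cartilage and bone (4 and 6 of 16) and erythroid genes (1 and 1 of 3) were thinly represented. The mast cell median was 0.29 on counts and -0.09 on the TPM scale.

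**Figure D5:**
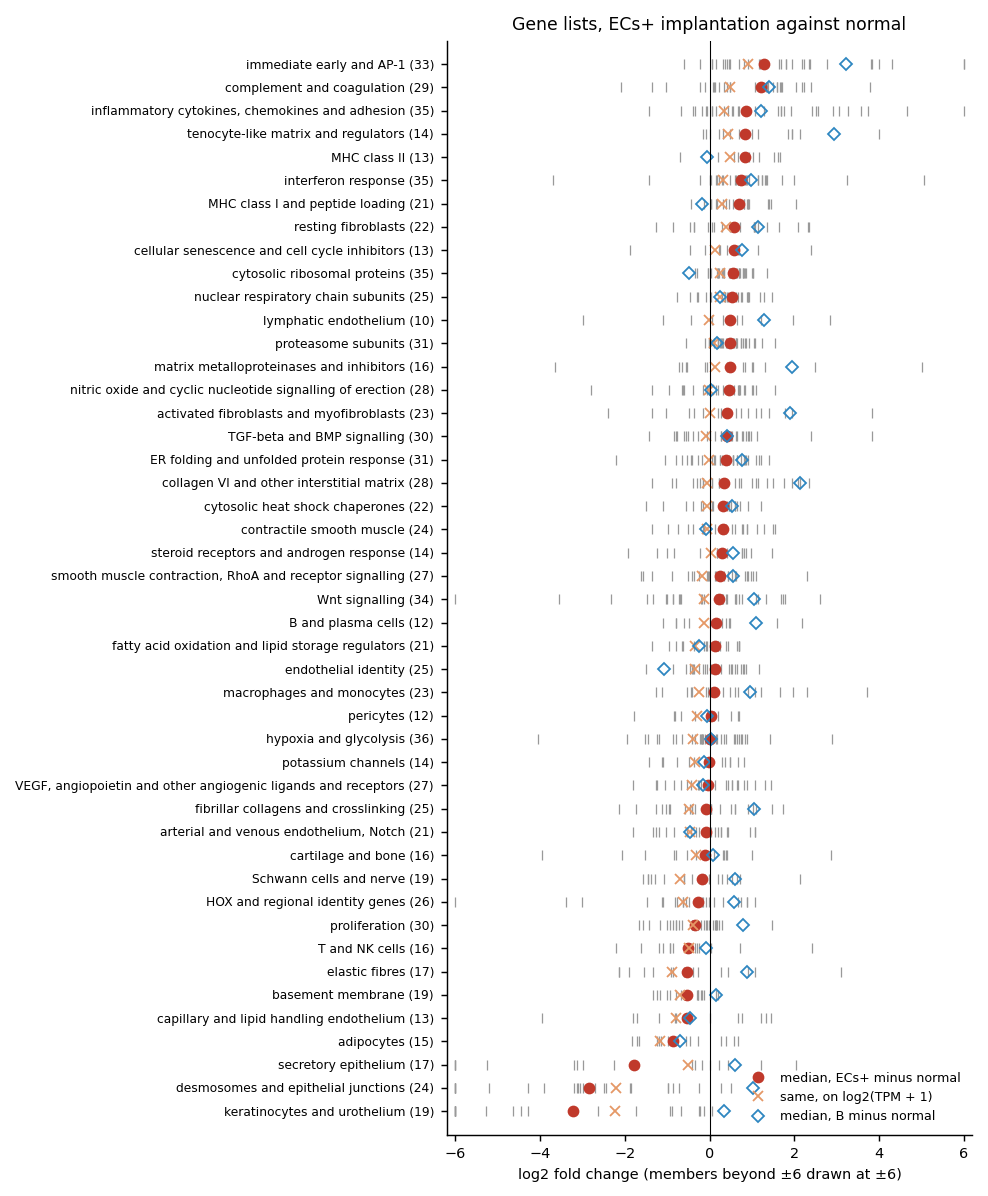
Log2 fold change of gene lists with at least 10 tested members, ECs+ minus normal, with grey ticks for members, red points for the median, crosses for the median on log2(TPM + 1) and open diamonds for implantation B minus normal. The lowest median is that of keratinocytes and urothelium at -3.21 and the highest that of immediate early genes at 1.30, while endothelial identity lies at 0.12 in ECs+ (-0.35 on log2(TPM + 1)) and at -1.08 in implantation B.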

How the data were processed

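Libraries of polyadenylated RNA came from a TruSeq kit (version 2), per the labels' protocols. Per the submitters' processing notes, the tools were HISAT2, HTSeq, fastp and DESeq2, given without versions, on Sscrofa11.1. The authors deposited raw gene counts and TPM values for the same 26654 genes, and the sources used here state neither how the TPM were made nor whether strand was used in counting. Reads of overlapping or antisense genes therefore cannot be told apart. Coordinates come from RefSeq's genes on that build, where 99.9% of the symbols were found.

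Counts were filtered with filterByExpr, scaled by TMM over the 12 libraries of normal, implantation A, implantation B and ECs+ implantation, and fitted in edgeR 4.0.16 (R 4.3.3; glmQLFit robust, glmQLFTest, two-sided, Benjamini-Hochberg) with the 6 libraries of each pair. Every ± beside a CPM is the SD over 3 libraries, and every ± beside a log2 change its SE. Summed CPM add the listed genes, untested ones included, and weigh abundant and long genes most. Floors cover counting error only. TPM were tested with limma-trend 3.58.1 on log2(TPM + 1), a scale that understates changes of low genes, and with a pseudocount of 0.1. Relative gene length was implied by the ratio of counts to TPM. DESeq2 1.42.0, limma-voom, other scalings, filters and thresholds, a replicate block and leaving out each library were alternatives. The scripts were first tried on a simulated table in which 200 genes carried a known change.

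Named genes are a fixed panel whatever its result, up to 4 members of smallest p and 2 nearest to 0 from each list described, the 8 largest changes each way, and members that move against their list. Some genes that the rule names are not reported here. COL1A2, COL5A1, P4HA1, LOXL4, IVL, FOXA1 and RN18S fall outside the rule and were chosen after their values were seen. The members, lists and rules were chosen with earlier results of these data known.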

Additional observations from a re-analysis of the deposited data

How the results depend on the processing

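Of 3063 combinations of 162 named genes with an alternative, 3012 kept their side of the threshold, and their direction where called. The direction of a gene called in neither fit was not compared. Of the rest, 26 reversed, 21 passed the threshold anew and 4 lost it, in 20 genes in all. The count of calls was 12361 with the replicate block (6293 higher, 6068 lower, 1903 past 2-fold, 5782 within 1.5-fold), where same-numbered libraries did not deviate together (r = 0.19, -0.07 and -0.03), and no named gene changed its call. Leaving out 1 library at a time gave 11629 to 12374 calls, 1704 to 2036 past 2-fold and 5238 to 5747 within 1.5-fold.

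On the TPM scale the counts of higher, lower and past 2-fold genes were 3273, 9390 and 1230 with a pseudocount of 1, and 3250, 9376 and 1934 with 0.1. Within 1.5-fold lay 8143 genes with 1 and 5137 with 0.1. The main fit on counts had 1898 past 2-fold and 5757 within 1.5-fold. Genes near 0 on counts turned negative on the TPM scale, with 1 and 0.1 in turn: CNN1 -0.361 and -0.362, HIF1A -0.341 and -0.352, SOX17 -0.350 and -0.365, RAMP2 -0.272 and -0.272, COL5A2 -0.496 and -0.500, COL11A1 -0.376 and -0.404, LAMC1 -0.396 and -0.400, C1QB -0.335 and -0.337, ENO1 -0.378 and -0.378, and RPS2 -0.375 and -0.376. S100B, which was not near 0 but higher on counts, was called lower on the TPM scale, at -0.111 with either pseudocount. With library size as the only scaling RAMP2 was at -0.093, LAMC1 at -0.089, ENO1 at -0.098 and RPS2 at -0.067. The shift of all genes on each scale is given in the report. Genes with few counts in ECs+, keratins among them, have fold changes that depth limits.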
